A study of Mus musculus with 4 samples.

Results

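The 39 genes described here make up most of the core machinery that copies DNA in S phase, and they were taken by symbol from the 31053 genes counted in mouse bone marrow. They comprised the genes that license origins (Cdc6, Cdt1, Gmnn and Mcm2 to Mcm7), those that activate the helicase (Mcm10, Cdc45 and Gins1 to Gins4), polymerase and primase subunits (Pola1, Pola2, Prim1, Prim2, Pold1, Pold2 and Pole), the sliding clamp with its partner and loader (Pcna, Pclaf and Rfc1 to Rfc5), proteins that cover single-stranded DNA or join the lagging strand (Rpa1, Rpa2, Fen1 and Lig1), enzymes of nucleotide supply (Rrm1, Rrm2, Tyms, Tk1 and Dut), and Uhrf1, which recognises hemimethylated DNA behind the fork. All 39 symbols were found, each as 1 row. Bone marrow mononuclear cells of 2 TLR9-/- mice and 2 WT mice of the C57BL/6 strain were read by 5′ single-cell RNA sequencing, each mouse giving 1 library, and unique molecular identifiers (UMIs) counted the molecules captured. TLR9-/- mice carry a disrupted Tlr9 gene in every cell, the genotypes were bred in separate cages, and the age of these mice is not given in the sources used here. Each of the 2 experiments held 1 mouse per genotype, but the labels do not say whether library numbers 1 and 2 mark these experiments. The comparisons ask in which marrow lineages replication genes were expressed and whether their levels differed between TLR9-/- and WT cells of the same class.

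Replication origins are licensed in G1, when Cdc6 and Cdt1 load the Mcm helicase onto DNA, and they fire in S phase once Cdc45 and the Gins complex join it. Many of these genes are transcribed together before and during S phase under E2F transcription factors, so their transcripts are widely used to mark cycling cells. In bone marrow, large pre-B cells, early erythroblasts and myeloid progenitors divide rapidly, whereas small pre-B cells, mature B cells, late erythroblasts and segmented neutrophils do not.

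Promoters of 31 of the 39 genes were present in the RefSeq table used here, each from 250 bases before to 50 bases after the annotated start on GRCm38.p6. At least 1 of the E2F words TTTCCCGC, TTTGGCGC, TTTCGCGC and TTTGCCGC, searched on both strands, occurred in 13 of these 31 genes (41.9%) and in 2.60% of 27025 genes with a promoter in the table. Overlapping words were counted separately. The last of these words occurred in 0 of the 31. The genes with a word were Cdc6, Cdt1, Gins3, Lig1, Mcm3, Mcm5, Mcm6, Mcm7, Pclaf, Pola1, Pold1, Rfc3 and Uhrf1. CCAAT was found in 64.5% of the 31 genes against 41.1% of all genes, and TTTGAA in 16.1% against 20.2%. The promoters shown are those with a word in the 180 bases before the start and no annotated gene overlapping these bases. They belong to 3 genes, 2 of origin licensing and the polymerase alpha subunit. All 3 were called between stages of every lineage below. The 180 bases are given in the direction of the gene, with the E2F words in capitals. A match is a string of letters and was not tested as a binding site.
Mcm6 (chr1:128359706-128359885, minus strand): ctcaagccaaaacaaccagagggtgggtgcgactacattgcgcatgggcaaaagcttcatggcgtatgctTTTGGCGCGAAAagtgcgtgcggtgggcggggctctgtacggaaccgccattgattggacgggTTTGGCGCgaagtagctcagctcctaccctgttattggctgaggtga
Mcm5 (chr8:75109329-75109508, plus strand): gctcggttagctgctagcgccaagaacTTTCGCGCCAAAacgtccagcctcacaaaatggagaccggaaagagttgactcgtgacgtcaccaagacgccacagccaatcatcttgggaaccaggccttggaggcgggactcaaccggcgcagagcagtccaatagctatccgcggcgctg
Pola1 (chrX:93632156-93632335, minus strand): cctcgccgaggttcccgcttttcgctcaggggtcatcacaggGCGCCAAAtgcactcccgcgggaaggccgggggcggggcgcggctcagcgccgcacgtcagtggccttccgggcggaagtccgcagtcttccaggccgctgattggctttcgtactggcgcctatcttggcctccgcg
In Mcm6 the words TTTGGCGC and TTTCGCGC overlap on opposite strands and a second TTTGGCGC lies nearer the start, in Mcm5 the same 2 words overlap, and in Pola1 the capitals are TTTGGCGC read on the other strand.

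After filtering, 39167 of 40545 cells remained, with 31210188 to 63958243 UMIs per library and a median of 1759 to 3618 UMIs per cell, higher in the TLR9-/- libraries. Tlr9 itself was counted with 41 and 48 UMIs in TLR9-/- and with 120 and 97 UMIs in WT marrow. Cells were clustered without the 39 genes and without other cell cycle and histone genes, and 27 clusters were found, most of which were named from marker lists and joined into 15 classes, so that a class name means cells resembling that class. Leading genes were ranked over all genes, including those left out of clustering. Ezh2, which follows the cell cycle but was not on the lists left out, was among the 10 leading genes of B-cell precursor cluster 3. Pclaf and the histone gene H2afx, both left out of clustering, were also among them. Cluster 11, led by Mpo, forms a class alone and could not be named with the markers used. Against all other cells, its 10 leading genes held 3 of the monocyte precursor list and 4 of the granulocyte precursor list. The former list took 2.38%, 2.78%, 2.73% and 2.55% of its UMIs against 3.70%, 4.21%, 3.43% and 3.17% in the granulocyte precursors of cluster 10. Compared with cluster 10 alone, 6 of the 12 genes on the list for monocyte precursors were raised in it. In that comparison it was led by Ms4a6c, with Irf8, Ly86 and F13a1 among its leading genes. It is referred to by number or as the Mpo-led precursors, and it is set beside monocytes as the nearest differentiated class without a claim of descent. The list of 16 B-cell precursor markers took 0.995% to 1.20% of UMIs in B-cell precursors and the list of 16 erythroid precursor markers 1.06% to 1.14% in erythroid precursors. Any 2 libraries shared between 112 and 185 cell barcodes (1.26% to 1.75% of the smaller library). A cluster of 428 cells that was led by immunoglobulin genes came mostly from the libraries numbered 1 and was left unnamed, as were 3 clusters in which 76.0% to 86.1% of the cells were marked as doublets.

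With cells clustered without cell cycle genes, replication genes took their largest share of UMIs in B-cell and erythroid precursors. With cell cycle genes kept, globin-rich erythroblasts formed a larger class and had the highest mean share (0.747%). B-cell precursors then had 0.624% and erythroid precursors 0.568%. The other values in this paragraph are for clustering without these genes. In B-cell precursors the 39 genes together made up 0.620% and 0.615% of UMIs in TLR9-/- mice (libraries 1 and 2) against 0.634% and 0.615% in WT mice. In erythroid precursors they made up 0.626% and 0.744% against 0.667% and 0.709%. Mpo-led precursors had 0.459% and 0.452% against 0.455% and 0.415%, and granulocyte precursors 0.346% and 0.363% against 0.337% and 0.345%. The ranges of B-cell and erythroid precursors overlapped, whereas those of Mpo-led and granulocyte precursors lay below them and apart from each other. In erythroid precursors the libraries numbered 2 had the higher shares and also the higher median UMIs per cell (11645 and 9326.5, against 4140.5 and 2603), and the part of depth in this difference was not tested. In such sums fewer cycling cells and fewer transcripts per cell cannot be told apart. Haematopoietic stem and progenitor cells had a mean of 0.360% ± 0.0265 (SD, n = 4 libraries), and their range overlapped those of granulocyte precursors and of monocytes (0.346% ± 0.0250). Neutrophils, B cells and T cells had 0.158%, 0.179% and 0.170% on average, and globin-rich erythroblasts 0.12%. In globin-rich erythroblasts the list of 16 globin-rich markers alone took 40.9% to 54.7% of UMIs, which lowers the share of every other gene. The rank of this class as the lowest was not tested on the remaining UMIs. Likewise, the list of 20 neutrophil markers took 46.3% to 47.9% of UMIs in neutrophils and 6.95% to 11.8% in granulocyte precursors. Its part in the neutrophil share was not tested. These shares rest on 20161 to 46457 UMIs of the 39 genes per library in B-cell precursors, 25548 to 59706 in erythroid precursors, 9184 to 47713 in Mpo-led precursors and 6210 to 42241 in granulocyte precursors.

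**Figure D1:**
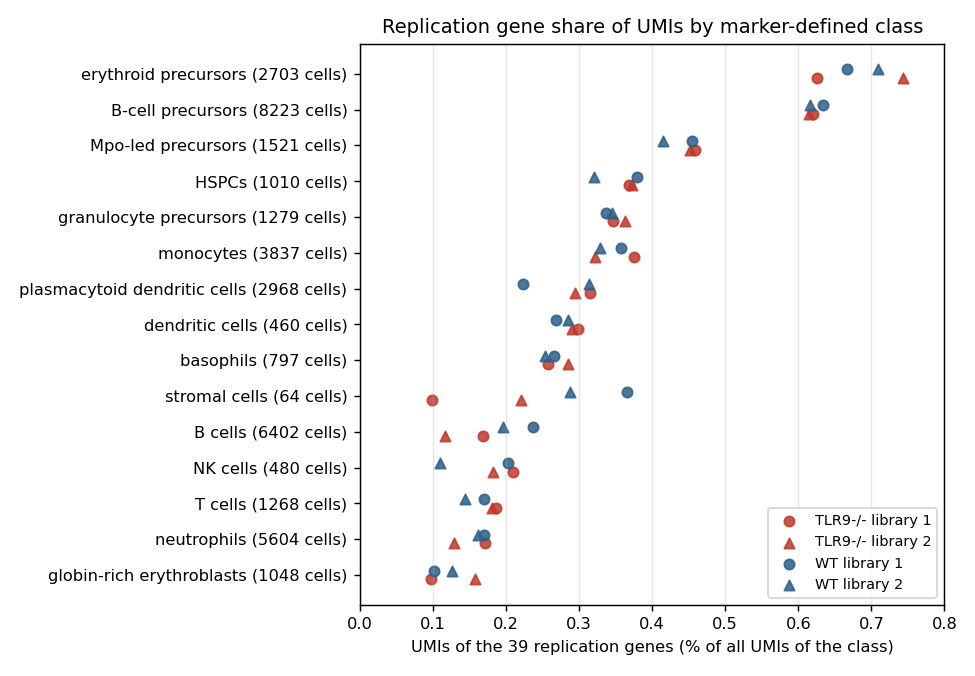
Share of all UMIs of a class, in percent, that came from the 39 replication genes, with 1 point per library and classes on the vertical axis with their number of cells. Erythroid and B-cell precursors sit between 0.615% and 0.744%, and globin-rich erythroblasts are lowest with a mean of 0.12%. In the latter class globin-rich markers took 40.9% to 54.7% of all UMIs. Cells were clustered without cell cycle genes, and with these kept the globin-rich class had the highest mean, 0.747%.

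Within each lineage the share differed between clusters, which were placed by hand in an assumed order of differentiation. It was not highest in the clusters placed first in the B and erythroid lineages. In the B lineage it rose again from cluster 4 to cluster 13. The clusters were chosen for description after their values were seen, so their steps are given without a test. For these and the following steps, counts of genes higher in every library have no share over all genes beside them. In the B lineage the Vpreb1-led cluster 12, with the pro-B genes Igll1 and Dntt, had 0.478% ± 0.0607 (SD, n = 4 libraries), the Nrgn-led cluster 14 had 0.761% ± 0.0198 and the Myl4-led cluster 3 had 0.793% ± 0.0213. In the Rag1-led cluster 4, whose leading gene encodes a recombinase of immunoglobulin gene rearrangement, it was 0.0868% and 0.0818% in TLR9-/- against 0.109% and 0.110% in WT libraries. From cluster 3 to cluster 4 the sum of the 39 genes was 8.18-fold lower, and 37 genes were higher in cluster 3 in every library. The Ms4a1-led B-cell cluster 13 had 0.239% and 0.195% in TLR9-/- against 0.335% and 0.274% in WT libraries, and the Fcer2a-led cluster 6 of mature B cells had between 0.0879% and 0.0971%.

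Pclaf, which binds the clamp and is a common marker of S phase, had 1029 UMIs when scaled to a common total (CPM) in cluster 12, 1785 CPM in cluster 14, 2220 CPM in cluster 3, 101 CPM in cluster 4, 479 CPM in cluster 13 and 41.6 CPM in cluster 6 (means of 4 libraries). Rrm2, the S-phase subunit of ribonucleotide reductase, was at 437 CPM ± 103.3 in cluster 3 and 18.9 CPM ± 8.56 in cluster 4, the largest fold among the 39 genes (23.1). Pold1, the catalytic subunit of DNA polymerase delta, had the smallest, with 108 CPM ± 6.07 and 94.7 CPM ± 22.5. Tyms, which makes thymidylate, was at 195 CPM ± 59.5 in cluster 12 and 114 CPM ± 9.68 in cluster 3, so that its highest mean within the B lineage lay at the earlier step.

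In the erythroid lineage the Mt2-led cluster 25 had 0.491% ± 0.0198, the Smim1-led cluster 8 had 0.828% and 0.976% in TLR9-/- against 0.743% and 0.901% in WT libraries, and the Tmcc2-led globin-rich cluster 9 had 0.0964% to 0.157%. All 39 genes were higher in cluster 8 than in cluster 9 in every library, by a median of 8.13-fold and by up to 16.3-fold for the licensing factor Cdc6 (129 CPM ± 19.4 against 7.89 CPM ± 3.55). Globin-rich markers took 40.9% to 54.7% of UMIs in cluster 9, and their part in these folds was not tested. The count of genes again lacks a share over all genes. Between clusters 25 and 8 the genes did not move together. Rrm2 was 4.29-fold higher in cluster 8 and Pclaf went from 194 CPM ± 45.3 to 684 CPM ± 67.1, whereas Pold2, the second subunit of polymerase delta, was at 76.2 CPM ± 18.3 and 41.1 CPM ± 12.9 and Dut, which removes uracil nucleotides from the pool, was at 1155 CPM ± 54.1 and 952 CPM ± 101.

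Among monocytes 1 cluster had as high a share as the Mpo-led precursors. The Fn1-led cluster 17 had 0.445% ± 0.0249, the same mean as the 0.445% ± 0.0205 of cluster 11, while the Clec4a3-led cluster 16 had 0.0751% ± 0.0223. All 39 genes were higher in cluster 17 than in cluster 16 in every library, by a median of 5.98-fold, and only 8 were higher in cluster 11 than in cluster 17 in every library. In the granulocyte lineage the Ngp-led cluster 5 had 0.232% ± 0.00518, against 0.348% ± 0.0109 in the Elane-led precursors of cluster 10, and the Ltf-led cluster 20 had 0.0152% to 0.0294%. Pclaf was higher in cluster 5 (546 CPM ± 56.3) than in cluster 10 (398 CPM ± 36.4), and Rrm2 was at 161 CPM ± 24.8 and 156 CPM ± 20.01, while Pold2 was at 10.1 CPM ± 2.39 and 39.2 CPM ± 10.7. All 39 genes were higher in cluster 5 than in cluster 20 in every library, by a median of 12.5-fold. Both clusters belong to the neutrophil class, in which neutrophil markers took 46.3% to 47.9% of UMIs. The part of these markers in this fold was not tested. The counts of genes in this paragraph have no share over all genes beside them.

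**Figure D2:**
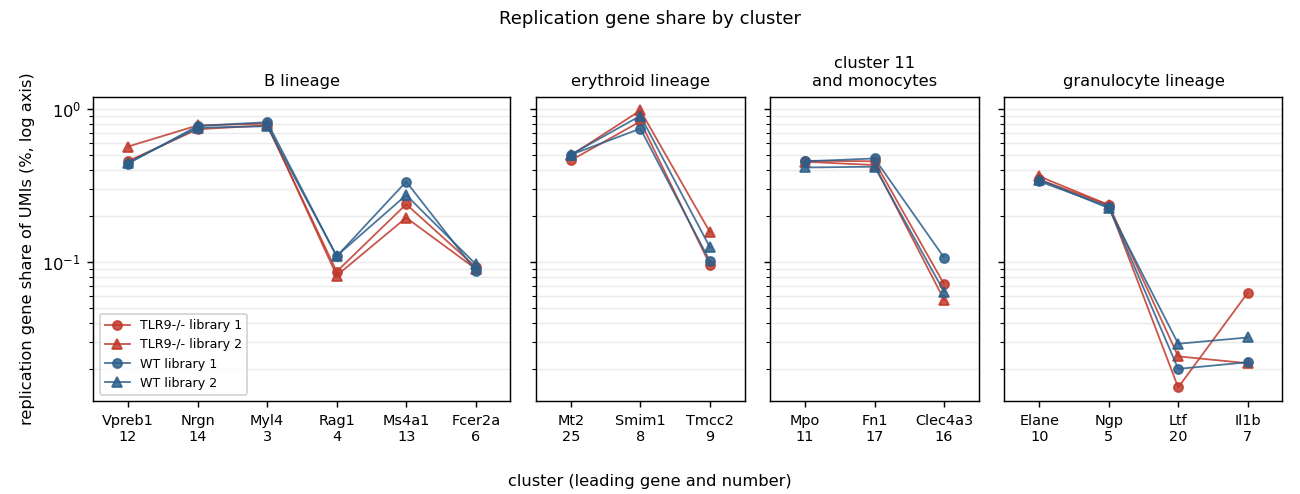
Share of UMIs from the 39 replication genes (percent, log axis) in clusters of the B, erythroid and granulocyte lineages and of cluster 11 with monocytes, labelled by leading gene and cluster number, with 1 line per library. In each lineage the last cluster lies below the highest one in all 4 libraries, by a median over genes of 8.13-fold from cluster 8 to cluster 9 and 5.98-fold from cluster 17 to cluster 16.

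To compare cells at the same depth, each cell was thinned to 1000 UMIs and counted when it still held at least 3 UMIs of the 39 genes. Cluster 14 had the highest mean share of such cells among the clusters named here, with 93.1% to 98.4% over the libraries. In cluster 3 it was 71.2% and 63.1% in TLR9-/- against 77.0% and 66.3% in WT libraries, and in cluster 4 it was 8.96% and 4.66% against 14.5% and 7.04%. Erythroid cluster 8 had 77.3% to 97.3% and globin-rich cluster 9 had 4.68% to 10.5%. In cluster 9 globin-rich markers also take up part of the 1000 UMIs kept. In the myeloid lineages it was 72.0% to 74.8% in cluster 11, 54.4% to 62.6% in cluster 17, 60.7% to 62.8% in cluster 10 and 26.1% to 34.5% in cluster 5. In neutrophils of cluster 20, which should hold no replicating cells, it was 0.332% to 1.63%. In the Il1b-led neutrophils of cluster 7 it was 3.76% and 0% in TLR9-/- against 0% and 0.643% in WT libraries, after 94 to 460 of its cells per library, those under 1000 UMIs, were left out. Values up to 3.76% were thus read as background, and the 4.66% of cluster 4 in 1 TLR9-/- library lay near it. Before thinning, the share was 97.1% to 99.8% in the precursors of cluster 10 and 1.35% to 5.91% in cluster 20. In clusters 5, 7 and 20 neutrophil markers also take up part of the 1000 UMIs kept by thinning.

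Over whole precursor classes the share of such cells was 58.3% and 37.2% in TLR9-/- and 61.8% and 47.0% in WT B-cell precursors, 82.1% and 93.3% against 78.1% and 91.9% in erythroid precursors, 74.8% and 72.0% against 72.8% and 72.9% in Mpo-led precursors, and 62.3% and 60.7% against 62.8% and 61.4% in granulocyte precursors. The genotypes overlapped in all 4 classes at this depth, and in B-cell and erythroid precursors the library numbers differed more than the genotypes. The overlap depended on the depth. Thinned to 500 UMIs, with 0 cells left out, the share was 28.3% and 29.0% against 21.7% and 24.1% in granulocyte precursors, 38.4% and 41.4% against 36.0% and 36.5% in Mpo-led precursors and 29.3% and 23.9% against 30.9% and 30.3% in B-cell precursors, without overlap, so that the granulocyte difference of −0.66 percentage points became 5.74. Thinning left out cells under 1000 UMIs, which were 669 and 61 TLR9-/- and 1164 and 313 WT B-cell precursors. Unthinned, B-cell precursors had 45.8% and 46.3% against 45.2% and 51.2%.

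**Figure D3:**
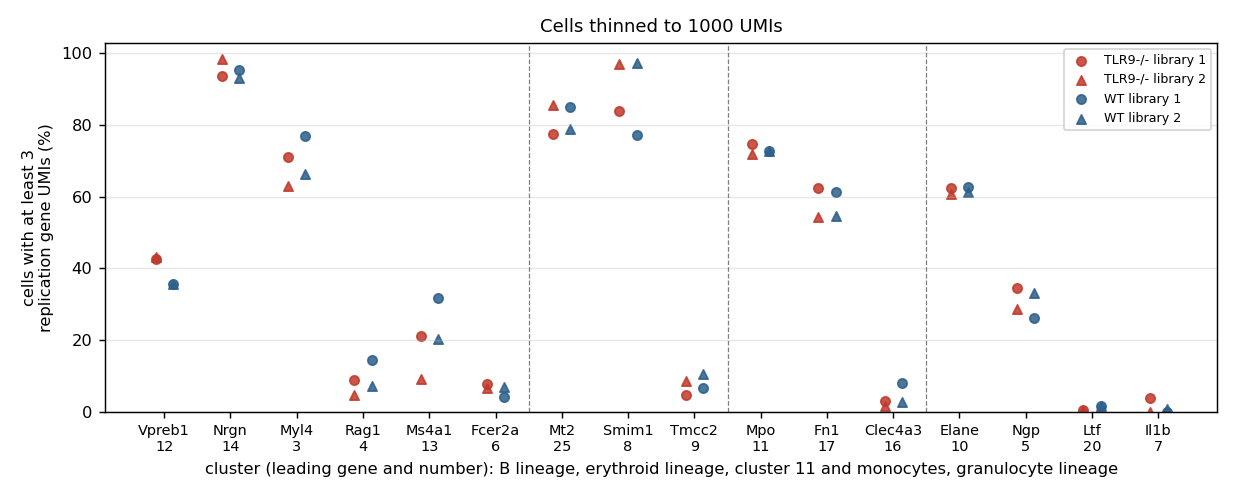
Percent of cells with at least 3 UMIs of the 39 replication genes after thinning to 1000 UMIs, with 1 point per library and clusters of the B, erythroid and granulocyte lineages and of cluster 11 with monocytes labelled by leading gene and number. Cluster 14 lies between 93.1% and 98.4%, and the neutrophils of cluster 20 between 0.332% and 1.63%.

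Precursors were then compared with the differentiated class of their lineage by edgeR's quasi-likelihood test on UMIs summed per library and class, with the library as a covariate and Benjamini-Hochberg adjustment over all genes tested. The classes were formed from the same cells, so the test compares them as grouped here. Neutrophils included the Ngp-led cluster 5, which held 7897, 9480, 3775 and 8799 of the 8488, 10451, 3910 and 9378 replication UMIs of that class. Monocytes included the Fn1-led cluster 17, with 25314, 21674, 9244 and 8248 of 26379, 22857, 10220 and 8684. Values are for TLR9-/- 1 and 2, then WT 1 and 2. The part of these clusters in the myeloid fold changes was not tested. Neutrophil markers took 46.3% to 47.9% of UMIs in neutrophils, and their part in the granulocyte comparison was not tested either. All 39 genes passed the filter on low counts in each of the 4 comparisons. Of the 39, 37 were higher in B-cell precursors than in B cells and 0 were lower, where 57.5% of 10357 genes were called and 28.7% were called higher in the precursors. In erythroid precursors against globin-rich erythroblasts 36 were higher and 0 lower (45.1% of 9083 genes called, 26.7% higher). Mpo-led precursors against monocytes gave 33 higher and 1 lower (70% of 10617 genes called, 34.3% higher), and granulocyte precursors against neutrophils gave 33 higher and 1 lower (74.4% of 10461 genes called, 36.7% higher). The median log2 fold change of the 39 genes was 1.71, 1.94, 0.46 and 0.74 in this order, beside medians over all genes tested of −0.03, 0.44, −0.01 and 0.00. The erythroid result depended on how the cells were grouped. When cell cycle genes were kept for clustering, the globin-rich class held 2691 cells instead of 1048 and included cycling cells. In that grouping 33 of the 39 genes were lower and 2 higher in the precursors. The share of all genes called in it is not given here, so these counts lack a background. The share of UMIs was 0.568% in precursors and 0.747% in the globin-rich class.

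**Figure D4:**
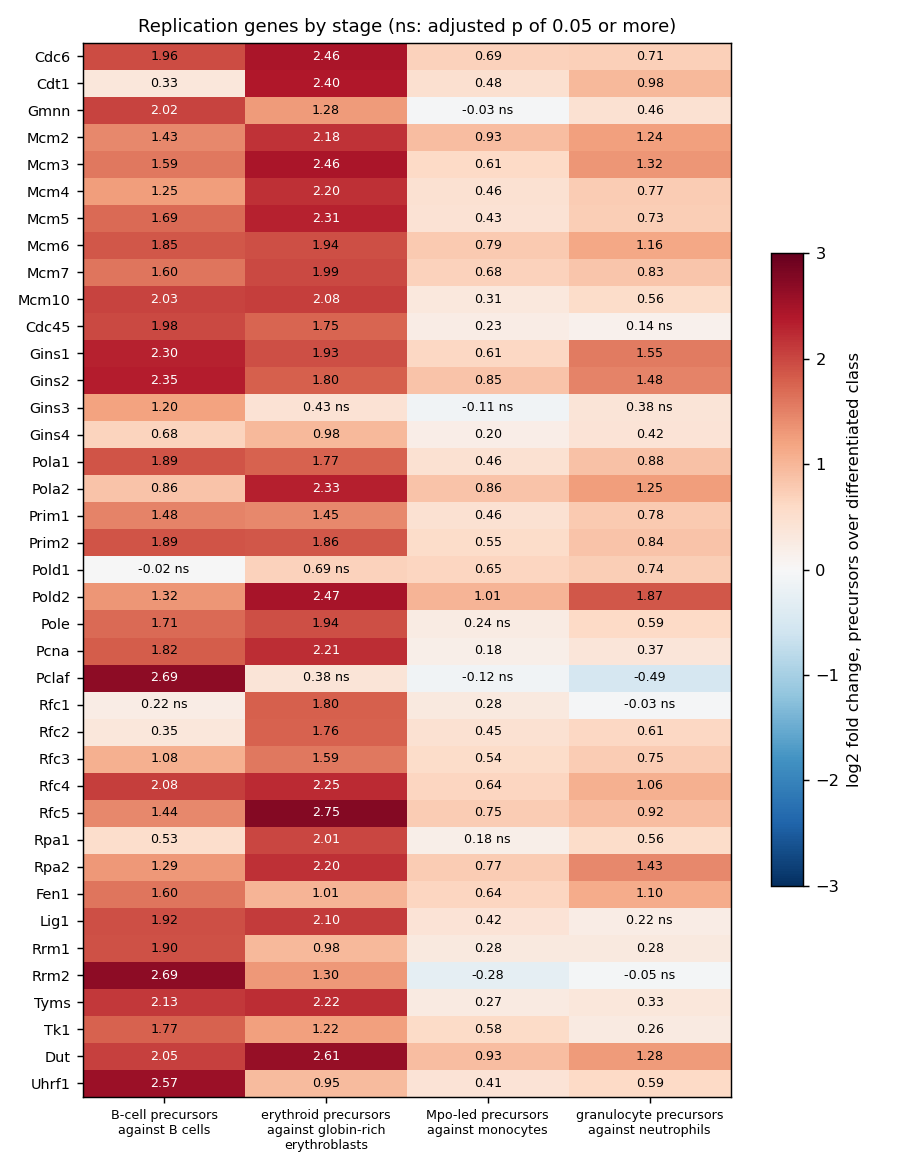
Log2 fold change of each replication gene (rows) between precursors and the differentiated class of 4 lineages (columns), with colour for the size and "ns" for an adjusted p of 0.05 or more. Colours are strongest in the B and erythroid columns, where the medians are 1.71 and 1.94, and Pclaf and Rrm2 are at or below 0 in both myeloid columns.

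Origin licensing genes followed the stage in all 4 lineages, apart from Gmnn in Mpo-led precursors. Mcm2, a subunit of the helicase ring, was at 90.1, 95.6, 96.8 and 116 CPM in B-cell precursors and 35.6, 22.2, 42.9 and 48.4 CPM in B cells (TLR9-/- 1 and 2, then WT 1 and 2, scaled within the comparison), with a log2 fold change of 1.43 (SE 0.14, adjusted p = 3.41e-06 by edgeR). The ranges did not overlap. Its log2 fold change was 2.18 in the erythroid, 0.93 in the Mpo-led and 1.24 in the granulocyte comparison. Mcm5, another ring subunit whose promoter is shown above, was at 126 to 150 CPM in B-cell precursors and 30.7 to 53.9 CPM in B cells (log2 fold change 1.69), and its values in the other lineages were 2.31, 0.43 and 0.73. Mcm6 showed 1.85, 1.94, 0.79 and 1.16. Cdc6 was at 60.2 to 78.1 CPM in erythroid precursors and 5.88 to 20.4 CPM in globin-rich erythroblasts (log2 fold change 2.46, SE 0.39, adjusted p = 2.62e-07 by edgeR). Gmnn, the inhibitor of Cdt1 that accumulates after origins have fired, was 2.02 higher on the log2 scale in B-cell precursors than in B cells, while in Mpo-led precursors it was at 169 CPM ± 7.61 against 172 CPM ± 18.5 in monocytes (adjusted p = 0.705 by edgeR).

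Genes of helicase activation gave larger fold changes for Gins1 and Gins2 than for Gins3 and Gins4 in all 4 lineages. Gins2 was at 79.9, 90.9, 75.4 and 78.8 CPM in B-cell precursors and 13.3, 10.1, 21.5 and 17.8 CPM in B cells, a log2 fold change of 2.35 (SE 0.17, adjusted p = 3.58e-07 by edgeR), and its values were 1.80, 0.85 and 1.48 in the other lineages. Gins3 passed the threshold in the B lineage (1.20) but not in the erythroid (0.43), Mpo-led (−0.11) and granulocyte (0.38) comparisons, where it had the fewest UMIs of the complex. Cdc45, which travels with the helicase, was at 42.1 to 46.3 CPM in B-cell precursors and 5.26 to 15.99 CPM in B cells (log2 fold change 1.98), and at 28.1 to 34.9 CPM in granulocyte precursors and 24.1 to 33.4 CPM in neutrophils (0.14, adjusted p = 0.302 by edgeR), where the ranges overlapped.

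Among polymerase and primase subunits Pola1, the catalytic subunit of polymerase alpha, was at 51.2, 52.6, 53.3 and 58.7 CPM in B-cell precursors and 13.98, 6.07, 18.1 and 19.6 CPM in B cells (log2 fold change 1.89, SE 0.19, adjusted p = 4.3e-06 by edgeR), and it was higher by 1.77, 0.46 and 0.88 in the other precursors. Pold2 had the largest log2 fold change of the 39 genes in both myeloid comparisons, 1.01 in Mpo-led precursors and 1.87 in granulocyte precursors, where it was at 33.9, 38.2, 33.2 and 19.8 CPM against 10.1, 9.01, 8.46 and 6.30 CPM in neutrophils. Pold1 was the exception in the B lineage, with 87.7, 89.8, 95.4 and 94.0 CPM in B-cell precursors and 115, 71.2, 102 and 89.4 CPM in B cells (log2 fold change −0.02, SE 0.11, adjusted p = 0.871 by edgeR). In the myeloid lineages Pold1 was higher in precursors by 0.65 and 0.74 on the log2 scale.

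Pold1 also set itself apart across all 15 classes. Its level, scaled to the UMIs of the class, was 92.8 CPM ± 17.7 in B cells and 92.7 CPM ± 3.36 in B-cell precursors, 59.5 CPM ± 6.60 in plasmacytoid dendritic cells, 42.2 CPM ± 7.25 in erythroid precursors and 13.6 CPM ± 3.17 in neutrophils. Spib, which encodes a transcription factor of B cells and plasmacytoid dendritic cells, lies directly beside it on the same strand. Pold1 spans chr7:44532746-44548849 of GRCm38 on the minus strand, and Spib, which spans 44525993 to 44532071, starts 674 bases beyond the end of Pold1. Spib was at 475 CPM in B cells, 260 CPM in B-cell precursors and 225 CPM in plasmacytoid dendritic cells, and at 1.61 to 51.3 CPM in the other 12 classes. Within the B lineage Spib ranged from 55.7 CPM in cluster 14 to 800 CPM in cluster 4, while Pold1 ranged from 72.3 CPM in cluster 6 to 115 CPM in cluster 13. The part of the neighbouring gene in the Pold1 values was not tested.

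The clamp and its partners split by lineage. Pcna, the sliding clamp, was at 341, 270, 373 and 341 CPM in B-cell precursors and 85.8, 53.8, 138 and 110 CPM in B cells (log2 fold change 1.82, SE 0.13, adjusted p = 3.48e-07 by edgeR), and it was higher by 2.21, 0.18 and 0.37 in the other precursors. Pclaf had the largest change of the B lineage, with 1655, 1273, 1804 and 1441 CPM against 246, 84.5, 497 and 267 CPM (2.69, SE 0.24, adjusted p = 2.13e-06 by edgeR). In granulocyte precursors Pclaf fell below the neutrophil class, which includes cluster 5, at 319 CPM ± 33.6 against 454 CPM ± 86.0 (log2 fold change −0.49, SE 0.09, adjusted p = 9.55e-05 by edgeR). In the erythroid and Mpo-led comparisons it did not pass the threshold (0.38 and −0.12). Rfc1, the large subunit of the clamp loader, was at 99.0, 107, 89.0 and 138 CPM in B-cell precursors and 81.3, 96.6, 89.6 and 102.9 CPM in B cells, with overlapping ranges and no call (0.22, adjusted p = 0.0739 by edgeR), and at 62.7 CPM ± 11.4 and 62.9 CPM ± 12.7 in granulocyte precursors and neutrophils. The small loader subunit Rfc4 was higher in all 4 precursor classes, by 2.08, 2.25, 0.64 and 1.06.

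Of the genes for single-stranded DNA and the lagging strand, Fen1, the flap nuclease, was at 89.9, 101, 81.5 and 79.8 CPM in B-cell precursors and 26.7, 23.9, 40.8 and 24.5 CPM in B cells (log2 fold change 1.60), and it was higher by 1.01, 0.64 and 1.1 in the other precursors. Lig1, the ligase that seals Okazaki fragments, was at 102, 177, 123 and 210 CPM in B-cell precursors and 31.1, 24.3, 47.1 and 58.8 CPM in B cells (1.92). It was lower in the libraries numbered 1 than in those numbered 2 in all 4 precursor classes. Rpa1, the large subunit of replication protein A, changed less, by 0.53 in the B and 0.56 in the granulocyte comparison, and was at 43.1 CPM ± 3.74 and 38.6 CPM ± 2.49 in Mpo-led precursors and monocytes (0.18, adjusted p = 0.0584 by edgeR).

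Enzymes of nucleotide supply and Uhrf1 gave some of the largest and some of the smallest values. Dut was at 810, 747, 732 and 772 CPM in erythroid precursors and 161, 94.1, 110 and 142 CPM in globin-rich erythroblasts (log2 fold change 2.61, SE 0.24, adjusted p = 3.1e-15 by edgeR), and was higher by 2.05, 0.93 and 1.28 in B-cell, Mpo-led and granulocyte precursors. Rrm2 was at 278, 308, 288 and 214 CPM in B-cell precursors and 45.1, 12.1, 68.2 and 48.7 CPM in B cells (2.69, SE 0.29, adjusted p = 8.76e-06 by edgeR). In Mpo-led precursors Rrm2 fell below the monocyte class, which includes cluster 17, with 138, 146, 127 and 104 CPM against 174, 157, 168 and 135 CPM (−0.28, SE 0.06, adjusted p = 0.000231 by edgeR). It was lower in the precursors of every library, although the ranges over libraries overlapped. In granulocyte precursors it was not called (−0.05). Tyms was higher in all 4 precursor classes (2.13, 2.22, 0.27 and 0.33), as was Tk1, the salvage kinase of thymidine (1.77, 1.22, 0.58 and 0.26). Uhrf1 was at 177, 195, 217 and 227 CPM in B-cell precursors and 27.3, 13.3, 53.0 and 48.4 CPM in B cells (2.57, SE 0.21, adjusted p = 9.99e-07 by edgeR), and was higher by 0.95, 0.41 and 0.59 in the other precursors.

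Other replication genes, listed from the pathway but with earlier results of these data known, moved with the stage less uniformly. Of 40 other replication factors tested, 31 were higher and 2 lower in B-cell precursors, 30 and 3 in erythroid, 23 and 10 in Mpo-led and 23 and 7 in granulocyte precursors. Over all genes tested, 28.8% were called lower in B-cell, 18.4% in erythroid, 35.7% in Mpo-led and 37.7% in granulocyte precursors. Asf1b, a histone chaperone of the fork, was higher in B-cell precursors (log2 fold change 2.55) and lower in Mpo-led and granulocyte precursors (−1.04 and −0.88). Samhd1, which degrades deoxynucleotides and thus opposes their supply, was lower in all 4 precursor classes (log2 fold changes from −0.80 to −2.59). Of the genes that regulate entry into S phase, 18 of 26 were higher and 2 lower in B-cell precursors and 12 of 25 higher and 3 lower in erythroid precursors. In Mpo-led precursors 10 of 27 were higher and 14 lower, and in granulocyte precursors 7 of 27 were higher and 15 lower. These counts stand beside 34.3% higher and 35.7% lower over all genes in the Mpo-led comparison and 36.7% and 37.7% in the granulocyte comparison. The cell cycle inhibitor Cdkn1b was lower in erythroid, Mpo-led and granulocyte precursors (log2 fold changes −4.13, −1.75 and −2.28). Ccna2, the cyclin of S phase, was higher in B-cell precursors (2.97) and lower in Mpo-led and granulocyte precursors (−0.62 and −0.56).

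Over the 15 classes, erythroid precursors had the highest mean level of 28 of the 39 genes and B-cell precursors of 7 (Gins2, Gins3, Pola1, Pclaf, Rfc1, Rfc3 and Uhrf1). Mpo-led precursors were highest for Pold2 and Rfc5, basophils for Rfc2 and B cells for Pold1. This order is for classes formed without cell cycle genes. With these genes kept, the summed share was highest in globin-rich erythroblasts (0.747%), and the order for single genes is not given here. For 12 of the 39 genes (Mcm3, Cdc45, Gins3, Gins4, Pola1, Prim2, Pold1, Pold2, Pole, Rfc1, Rfc5 and Lig1) the highest and the second class differed by less than the larger SD of the 2, as for Pold2 in Mpo-led precursors (58.3 CPM ± 9.82) and erythroid precursors (57.0 CPM ± 16.9) and their order is not resolved. Each gene's Spearman correlation with the sum of the other 38 genes over the 15 class means had a median of 0.889, from 0.5 for Rpa1 to 0.982 for Mcm7, and 32 of the 39 were above 0.8. These points share libraries, depth and scaling, and the values describe the order of classes without a test. Where genes overlap, whether reads of the partner gene were counted was not tested. Of the 39 genes, 12 are overlapped by another annotated gene. On the same strand this was 1 gene, Cdt1, overlapped by Gm20388. On the other strand it was 11 genes, among them Pclaf overlapped by Trip4, Rfc2 by Lat2 and Rfc5 by Wsb2.

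The makeup of the replication transcripts also differed between lineages. Clamp and loader genes, counted with Pclaf, provided 38.3% ± 2.84 of the UMIs of the 39 genes in B-cell precursors, 31.1% ± 1.96 in Mpo-led precursors, 26.9% ± 1.44 in granulocyte precursors and 20.9% ± 1.70 in erythroid precursors (SD, n = 4 libraries). Pclaf alone was at 1557 CPM in B-cell precursors, and this group was not split without it. Pcna and Rfc4 were higher in erythroid than in B-cell precursors (423 against 334 CPM and 179 against 124 CPM), whereas Pclaf, Rfc1 and Rfc3 were highest in B-cell precursors. Licensing genes provided 27.2% ± 2.17 in erythroid and 18.8% ± 1.64 in B-cell precursors, and genes of nucleotide supply 31.4% ± 1.69 and 22.7% ± 1.09. Uhrf1 made up 3.32% ± 0.359 in B-cell precursors and 1.71% ± 0.126 to 2.05% ± 0.164 in the other 3 precursor classes. In every library the clamp and loader part, with Pclaf, was larger in B-cell precursors, and the nucleotide and licensing parts were larger in erythroid precursors.

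Replication genes were not called between TLR9-/- and WT cells in any of the 4 precursor classes. The test was edgeR's quasi-likelihood test of 2 libraries against 2 on UMIs summed per library, with Benjamini-Hochberg adjustment over all genes tested, and all 39 genes were tested in each class. In B-cell precursors 0 of the 39 were called, where 0.636% of 10540 genes were. In erythroid precursors it was 0 of 39 beside 0.239% of 9622 genes, in Mpo-led precursors 0 of 39 beside 0.4% of 10242 genes, and in granulocyte precursors 0 of 39 beside 0.581% of 9977 genes. At an unadjusted p under 0.05, 3, 2, 1 and 1 of the 39 passed in these classes, each of them higher in TLR9-/- cells. Over all genes tested, 963 of 10540, 788 of 9622, 924 of 10242 and 933 of 9977 passed at this threshold, in either direction. The member counts thus do not stand out from all genes. DESeq2 called 0 in each class with 0, 1, 0 and 1 at an unadjusted p under 0.05. The median log2 fold change of the 39 was −0.03, −0.08, 0.04 and 0.00, beside −0.01, −0.02, −0.02 and −0.02 over all genes tested. The fewest UMIs of any of the 39 genes in 1 library were 53, 55, 18 and 17 in the 4 classes. In simulated counts this test recovered 63.4%, 18.8%, 63.9% and 53.1% of changes of 1 on the log2 scale in these classes. The 0 calls thus do not show equal levels.

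The summed share of UMIs was compared as well. It was 0.618% ± 0.00399 in TLR9-/- and 0.625% ± 0.0134 in WT B-cell precursors (SD, n = 2 libraries per genotype), a difference of −1.16%. On the log2 scale this ratio was −0.02, and it was −0.22 with cells thinned to 1000 UMIs and 0.011 at clustering resolution 2. The share was 0.685% ± 0.0830 against 0.688% ± 0.0301 in erythroid precursors, a difference of −0.45%. Mpo-led precursors had 0.455% ± 0.00493 against 0.435% ± 0.0283 (4.77%), and granulocyte precursors 0.355% ± 0.0119 against 0.341% ± 0.00604 (3.94%). The libraries of the genotypes overlapped in all classes but the granulocyte precursors, where both TLR9-/- values, 0.346% and 0.363%, lay above both WT values, 0.337% and 0.345%, by less than the spread within TLR9-/-. On the log2 scale the ratio of TLR9-/- to WT was −0.03 for the libraries numbered 1 and −0.0015 for those numbered 2 in B-cell precursors, −0.09 and 0.07 in erythroid, 0.01 and 0.12 in Mpo-led and 0.04 and 0.07 in granulocyte precursors.

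**Figure D5:**
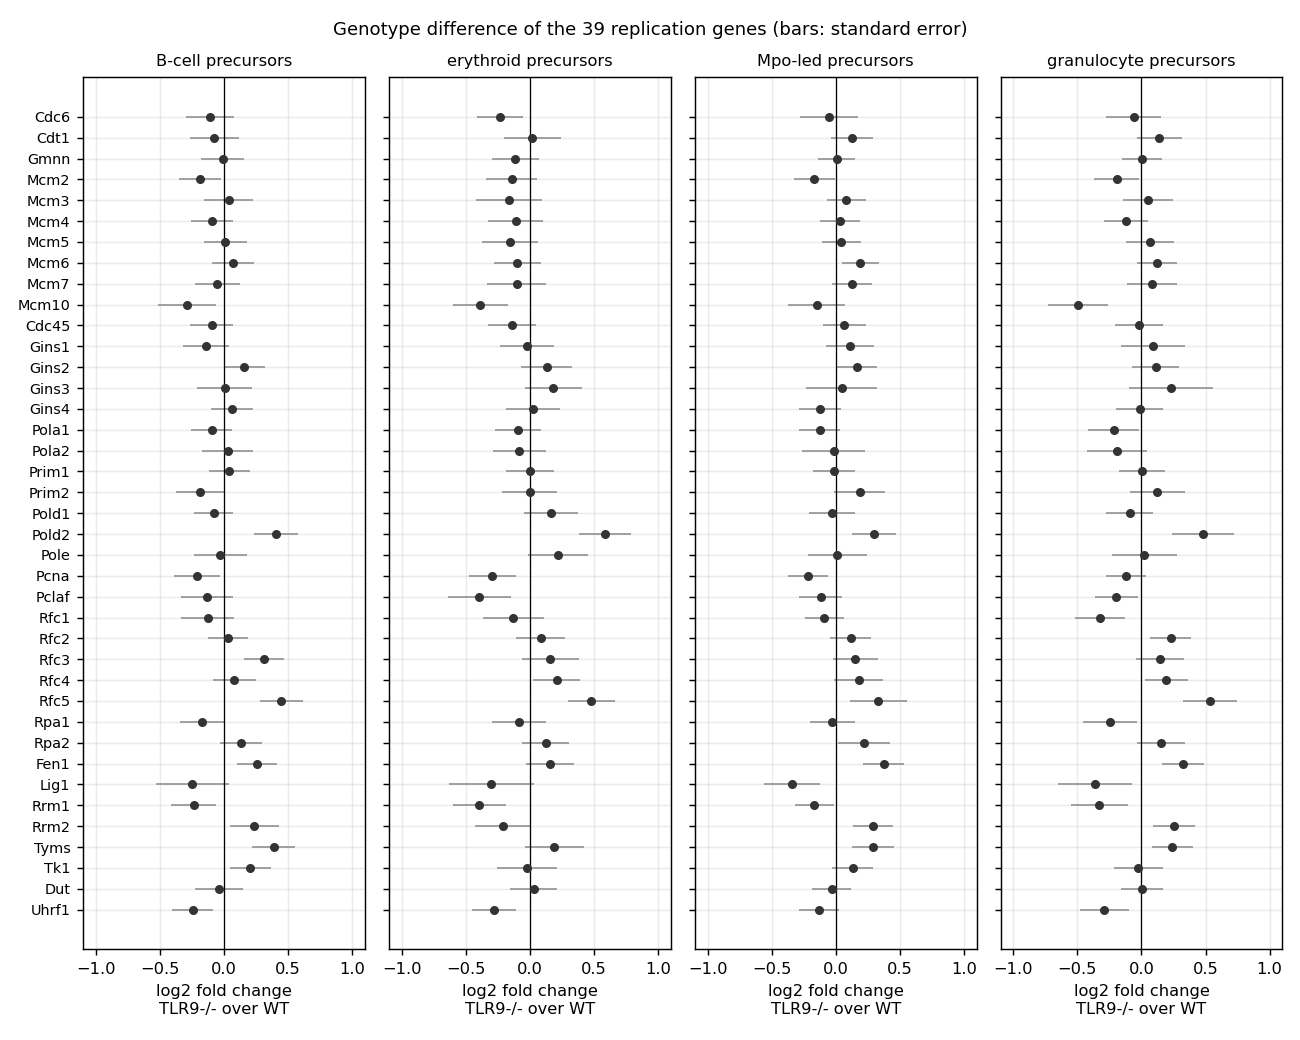
Log2 fold change of each of the 39 replication genes between TLR9-/- and WT cells (horizontal axis) in 4 precursor classes, with bars of 1 standard error from edgeR. Points scatter around 0 with medians of −0.03, −0.08, 0.04 and 0.00, and Rfc5 and Pold2 lie furthest to the right in several classes.

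Rfc5 and Pold2 were among the 3 highest of the 39 genes in all 4 classes, though none of these values passed the adjusted threshold. The classes share the 4 libraries, so they are given side by side and not as independent support. Rfc5, a small subunit of the clamp loader (chr5:117378103-117389047 of GRCm38, minus strand), was at 66.5 and 64.8 CPM in TLR9-/- against 52.7 and 43.8 CPM in WT B-cell precursors (log2 fold change 0.45, SE 0.17, adjusted p = 0.458 by edgeR). In erythroid precursors it was at 71.8 and 82.6 CPM against 58.2 and 52.8 CPM (0.48, SE 0.19), and in granulocyte precursors at 62.4 and 61.9 CPM against 52.9 and 35.2 CPM (0.54, SE 0.21, adjusted p = 0.472 by edgeR). TLR9-/- values lay above both WT values in these 3 classes. In Mpo-led precursors, with 80.6 and 84.3 CPM against 83.1 and 48.7 CPM, the genotypes overlapped.

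Pold2 was at 58.4 and 52.9 CPM in TLR9-/- against 44.4 and 39.9 CPM in WT B-cell precursors (log2 fold change 0.41, SE 0.17). It was at 60.2 and 75.6 CPM against 42.6 and 48.1 CPM in erythroid precursors, its largest difference (0.58, SE 0.20, adjusted p = 0.557 by edgeR), at 65.6 and 62.9 CPM against 59.0 and 45.7 CPM in Mpo-led precursors (0.30) and at 42.2 and 47.3 CPM against 42.0 and 24.9 CPM in granulocyte precursors (0.48). Both TLR9-/- values exceeded both WT values in each class, although in granulocyte precursors the lower TLR9-/- value and the higher WT value were nearly equal. The mean Pold2 level of erythroid cluster 8 was 0.54 times that of cluster 25. Cluster 8 made up 73.8% and 69.2% of TLR9-/- and 90.1% and 72.3% of WT erythroid precursors. The part of this makeup in the Pold2 difference was not tested. With the library number as a block in the fit, Rfc5 and Pold2 were called in granulocyte precursors (adjusted p = 0.00605 and 0.0266 by edgeR). In the other 3 classes 0 of the 39 genes were called. So few libraries leave the blocked fit little from which to estimate the spread. The share of all genes called in it is not given here, so these calls lack a background. For Pold2 the libraries of the same number had 42.2 against 42.0 CPM and 47.3 against 24.9 CPM. Its difference in granulocyte precursors thus lay almost wholly in the latter pair.

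Tyms was the next highest gene in B-cell precursors, with 134 and 152 CPM against 119 and 99.3 CPM (log2 fold change 0.39, SE 0.17), but its direction turned when cells were thinned to 1000 UMIs (−0.11). Fen1 was the highest in Mpo-led precursors, with 94.7 and 100.6 CPM against 82.6 and 68.5 CPM (0.37, SE 0.16, adjusted p = 0.541 by edgeR), and followed Rfc5 and Pold2 in granulocyte precursors (0.32). In erythroid precursors Pole, the catalytic subunit of the leading-strand polymerase, followed them, with 27.1 and 40.0 CPM against 26.8 and 31.2 CPM (0.22, SE 0.24). The genotypes overlapped for Pole and not for the others.

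At the other end, Mcm10, which helps to activate the loaded helicase, had the lowest log2 fold change in B-cell and granulocyte precursors. It was at 21.9 and 22.6 CPM against 21.9 and 32.2 CPM in B-cell precursors (−0.29, SE 0.23) and at 12.8 and 17.4 CPM against 19.1 and 23.3 CPM in granulocyte precursors (−0.50, SE 0.23, adjusted p = 0.551 by edgeR). Lig1 was at 104 and 181 CPM in TLR9-/- against 124 and 211 CPM in WT B-cell precursors (−0.25, SE 0.28), so that the library numbers differed more than the genotypes, and the same order held in Mpo-led precursors (84.5 and 116 CPM against 103.1 and 151 CPM, −0.34) and granulocyte precursors (58.9 and 98.9 CPM against 72.6 and 128 CPM, −0.36). Uhrf1 was at 179 and 199 CPM against 219 and 229 CPM in B-cell precursors (−0.25, SE 0.16).

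Pclaf, Rrm1 and Pcna completed the lowest values. In erythroid precursors Pclaf was at 420 and 384 CPM against 648 and 409 CPM (log2 fold change −0.39, SE 0.24) and Rrm1, the large subunit of ribonucleotide reductase, at 186 and 249 CPM against 271 and 301 CPM (−0.39, SE 0.20), while Mcm10 was at 34.8 and 39.9 CPM against 42.2 and 55.4 CPM (−0.39, SE 0.21, adjusted p = 0.648 by edgeR). The high Pclaf value of the WT library numbered 1 went with its makeup. Cluster 8, with 684 CPM of Pclaf against 194 CPM in cluster 25, made up 90.1% of its erythroid precursors and 69.2% to 73.8% of those of the other libraries, and globin-rich markers took 12.1% of its UMIs against 1.96% to 4.99%. The part of makeup in the Pclaf difference was not tested. Rrm1 was also among the 3 lowest in Mpo-led (−0.17) and granulocyte precursors (−0.33). Pcna was at 186 and 164 CPM against 218 and 190 CPM in Mpo-led precursors (−0.22, SE 0.15). None of these genes passed the threshold, and the genotypes overlapped for Pclaf in erythroid precursors, for Mcm10 in B-cell precursors, for Rrm1 in granulocyte precursors and for Lig1 in all 4 classes.

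Genes whose libraries did not overlap between genotypes were also counted and are set beside the same count over all genes. In B-cell precursors 7 of the 39 were higher and 5 lower in both TLR9-/- libraries, beside 20.8% and 19.6% of all genes tested. It was 3 and 7 in erythroid precursors (19.8% and 20.1% of all genes), 6 and 3 in Mpo-led precursors (19.4% and 21.1%) and 9 and 4 in granulocyte precursors (19.8% and 20.7%). The standard error of the log2 fold changes of the 39 genes ran from 0.15 to 0.33, and 27, 30, 27 and 23 of them lay within 1 standard error of 0.

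A test of whether the genotype difference varied between the 4 precursor classes called 0 of the 39 genes, where 0.565% of 11867 genes were called. The smallest adjusted p among them was that of Rrm2 (0.408 by edgeR's quasi-likelihood test), which was at 366 CPM ± 33.7 in TLR9-/- against 425 CPM ± 100 in WT erythroid precursors and at 141 CPM ± 6.46 against 116 CPM ± 14.2 in Mpo-led precursors. Among the other genes of the pathway, 0 of 40 other replication factors were called in each class, and of 26 regulators of S-phase entry 1 was called in B-cell precursors. This was Ccnd2, the D-type cyclin induced by growth factor signals, with 123 and 141 CPM in TLR9-/- and 60.4 and 73.8 CPM in WT cells (log2 fold change 0.97, SE 0.17, adjusted p = 0.0313 by edgeR). In the other 3 classes 0 of 26 or 27 regulators were called.

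Apart from 64 stromal cells, B cells were the class in which the share of replication transcripts differed most between genotypes. The 39 genes made up 0.169% and 0.117% of UMIs in TLR9-/- and 0.237% and 0.195% in WT B cells, a difference of −33.9% between the means. Of the 39, 37 had a log2 fold change below 0 with a median of −0.67, yet 0 were called (smallest adjusted p = 0.177 by edgeR, 16 lower at an unadjusted p under 0.05), where 0.245% of 9389 genes were called. At an unadjusted p under 0.05, 633 of the 9389 genes passed in either direction. By number of cells, the makeup of the class differed in 1 library. The Fcer2a-led cluster 6, low in replication transcripts, made up 46.2% and 76.3% of TLR9-/- and 45.8% and 49.9% of WT B cells, and the list of 16 B-cell precursor markers took 0.504% and 0.389% against 0.527% and 0.487% of UMIs. Within the Ms4a1-led cluster 13 alone the share was still lower in both TLR9-/- libraries (0.239% and 0.195% against 0.335% and 0.274%), and within cluster 6 the libraries overlapped. The libraries numbered 1 had nearly the same makeup by number of cells and differed in the share of replication UMIs. By UMIs their makeup was less alike. Cluster 6 held 768248 of 1600925 UMIs in the TLR9-/- and 996440 of 2500963 in the WT B cells of these libraries. Cells marked as doublets were 2.71% and 1.59% of TLR9-/- and 4.38% and 3.79% of WT B cells. They were 6.48% of cluster 13 and 0.55% of cluster 6. The parts of makeup and of doublets in the difference were not tested beyond these values.

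In B-cell precursors the makeup differed between libraries as well. By number of cells, cluster 3 made up 34.9% and 28.4% of TLR9-/- and 43.8% and 37.9% of WT B-cell precursors. The low cluster 4 made up 37.1% and 47.0% against 34.3% and 32.3%, and cluster 14 made up 10.4% and 7.98% against 5.63% and 9.22%. Cells of cluster 14 had a median of 8861 UMIs and those of cluster 4 a median of 944. Cluster 14 held 2055611 and 892421 UMIs in TLR9-/- and 1356737 and 2158619 in WT libraries. Cluster 4 held 696961 and 559819 against 963966 and 914113. The summed share of replication UMIs stayed between 0.615% and 0.634%. In the other 9 classes with at least 20 cells in every library, 0 of the 14 to 39 members tested were called, where 0.154% of all genes tested were called in basophils, 0% in dendritic cells and globin-rich erythroblasts, 0.225% in stem and progenitor cells, 0.401% in monocytes, 0.346% in neutrophils, 0.0903% in NK cells and 0.182% in T cells. In plasmacytoid dendritic cells 31 of the 39 were above 0 and 6 of them passed an unadjusted p under 0.05, with a smallest adjusted p of 0.264 by edgeR and 0.256% of 9748 genes called. At an unadjusted p under 0.05, 719 of the 9748 genes passed in either direction.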

How the data were processed

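Bone marrow mononuclear cells were run on the 10x Chromium 5′ platform, 1 library per mouse, in 2 TLR9-/- and 2 WT mice. The sequencing methods of the paper do not describe how these cells were prepared. For its osteoclast cultures such cells came from femur and tibia, were kept overnight with M-CSF and were then taken from a Ficoll interface. Whether this holds for the sequenced cells is not stated there. The authors aligned reads with Cell Ranger 3.0.1 (matrix header) to mm10, and the submitters' processing notes also name STAR and Seurat 2.3.4. The deposited values are raw UMI counts per gene and cell, 1 matrix per library, not brought to a common mapped depth. Cells with under 200 or over 10000 genes, or over 10% mitochondrial UMIs (the study's limit read as a fraction of 0.1), were left out. The members, gene lists and marker lists were chosen with earlier results of these data known.

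Cells were clustered with scanpy 1.11.5 (Leiden, resolution 1, 2000 variable genes, 30 components) without 366 cell cycle, replication and histone genes. Scrublet set no usable threshold in 2 libraries, so the highest scores at 0.8% per 1000 cells were marked as doublets. They were kept in the classes, and 3 doublet-rich clusters stayed unnamed. Counts were summed per library and class, filtered with filterByExpr, scaled by TMM and tested with edgeR 4.0.16 (quasi-likelihood, R 4.3.3, Benjamini-Hochberg adjustment over all genes tested, threshold 0.05). DESeq2 1.42.0 was an alternative. CPM values in tests are TMM-scaled within the comparison, and cluster and class levels are UMIs scaled to the class total alone. The scripts were tested on simulated data with true changes of 1 and 2 on the log2 scale. At 1 the genotype test recovered 63.4% in B-cell, 18.8% in erythroid, 63.9% in Mpo-led and 53.1% in granulocyte precursors. At 2 it recovered 94.4%, 86.4%, 97.8% and 99%. Of the genes called, 10.1%, 1.02%, 15.6% and 10.5% were not truly changed. The test of granulocyte stages recovered 93.5% and 100%, and 6.76% of its calls were not truly changed. With 2 mice per group an exact permutation test of genotype cannot go below p = 0.33. Genotype p-values measure the spread between libraries of the same genotype, which come from different mice and different experiments. In the stage tests, with the library as a covariate, p-values measure the spread of the differences within libraries.

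All 39 genes were counted. Values were given for members called between genotypes, the 3 highest and 3 lowest log2 fold changes per precursor class, and a panel of Mcm2, Mcm5, Cdc6, Cdc45, Gins2, Pola1, Pcna, Pclaf, Rfc1, Rpa1, Fen1, Lig1, Rrm2, Tyms, Tk1, Dut and Uhrf1. Other genes were named after their values were seen. Alternatives were other scaling, no filter, resolution 2, cell cycle genes kept, doublets left out, thinning, and each library left out.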

Additional observations from a re-analysis of the deposited data

How the results depend on the processing

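The number of the 39 genes called between genotypes was 0 in every alternative run, except that a replicate block gave 2 in granulocyte precursors. It was also 0 to 0 with 1 library left out, which leaves 1 sample in a group, takes the spread from the other group alone and is no sign of stability. Libraries with the same number deviated together (correlations 0.294, 0.383, 0.262 and 0.303 in B-cell, erythroid, Mpo-led and granulocyte precursors), and with only 2 pairs it cannot be said whether the numbers mark a shared experiment. Leaving out 1 library gave 36 to 38, 34 to 37, 32 to 35 and 30 to 35 genes called between stages, log2 ratios of the summed share of −0.04 to 0.01, −0.14 to 0.11, 0.0023 to 0.14 and 0.02 to 0.09, and differences in the share of cells of −17.2 to 3.94, −4.20 to 9.63, −0.88 to 1.95 and −1.46 to 0.15 percentage points. The ratio of shares was 0.011 in B-cell precursors at resolution 2, −0.22 there after thinning, 0.012 in granulocyte precursors after thinning, and 0.14 in Mpo-led precursors without the WT library numbered 1. Thinning to 500 UMIs moved the difference in cells to 3.60 (Mpo-led) and 5.74 (granulocyte precursors), thinning to 2000 UMIs to 3.19 and a limit of 2 UMIs to 1.47 in granulocyte precursors.

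With cell cycle genes kept, 35 genes were called between erythroid stages, 33 of them in the opposite direction, without a share over all genes beside them. The log2 fold changes of Pclaf, Gins3, Pold1 and Rfc5 were then −1.36, −0.91, −0.42 and −0.13. In that clustering Mpo-led and granulocyte precursors fell into 1 cluster and gave no value. Between genotypes, leaving out 1 library gave log2 fold changes of −0.54 to 0.0098 for Mcm10 and −0.70 to 0.17 for Lig1 in B-cell precursors, with Lig1 at 0.11 without the TLR9-/- library numbered 1, −0.098 to 0.46 for Pole in erythroid precursors, −0.012 to 0.78 for Rfc5 in Mpo-led precursors and −0.79 to 0.13 for Lig1 in granulocyte precursors. After thinning, Tyms was at −0.11 in B-cell, Mcm10 at 0.075 in erythroid and Rrm1 and Rfc5 at 0.12 and −0.025 in Mpo-led precursors. Between stages Pold1 was at 0.017 in the B lineage with no filter and at −0.13 to 0.094 with 1 library left out, and Rfc1 at 0.012 and −0.10 to 0.026 in the granulocyte lineage. The cause of these changes was not tested. At resolution 2 a cycling B-cell precursor cluster of 831 cells led by Nrgn stayed unnamed.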
